A study of Rattus norvegicus with 12 samples.

Results

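The miR-30 family is a set of small regulatory RNAs cut from related hairpins, whose 5p arms share the bases with which they recognise their targets. Its members were measured in rat serum (male Sprague-Dawley, Jcl:SD, aged 7 weeks) in 4 groups, each given oral treatment on a single occasion. The control group received sterile distilled water, the caffeine group 180 mg/kg caffeine, and the dextromethorphan group 200 mg/kg dextromethorphan hydrobromide monohydrate. The combination group received caffeine at 180 mg/kg and, an hour later, dextromethorphan at 200 mg/kg. Blood was drawn under anaesthesia an hour after dextromethorphan, and the labels name no genetic modification for any group. Caffeine is a stimulant that blocks adenosine receptors, and dextromethorphan is a cough suppressant that blocks NMDA receptors. Small RNA was sequenced from 12 libraries, 3 in each group, and the members were taken from the deposited table by name. Of 7 names listed for the family, 6 had rows among the 752 mature microRNA names of the table (rno-miR-30a-5p, rno-miR-30a-3p, rno-miR-30c-5p, rno-miR-30d-5p, rno-miR-30e-5p and rno-miR-30e-3p, written below without the species prefix). All 6 passed the filter on low values that left 366 microRNAs for testing. miR-30b-5p is not analysed here.

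MicroRNA genes are transcribed as hairpins, which are cut so that either the 5p or the 3p arm can be loaded into an Argonaute protein. The loaded arm pairs with messenger RNAs mainly through its seed, bases 2 to 8, and lowers their translation and stability. The miR-30 5p arms share a seed, are abundant in many tissues including kidney, heart and lung, and are known for roles in epithelial differentiation and in autophagy. In serum microRNAs are carried in vesicles and in protein complexes, and they come from blood cells and from solid tissues.

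The mature sequences are shown because the members differ by few bases, which bears on how reads can be told apart. Sequences are those of RefSeq (GRCr8) and matched 4 of the 6 members by name; they are written 5′ to 3′ with the seed in capitals. miR-30d-5p and miR-30e-3p are named only.
miR-30a-5p: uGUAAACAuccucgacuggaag
miR-30e-5p: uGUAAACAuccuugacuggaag
miR-30c-5p: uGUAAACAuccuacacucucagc
miR-30a-3p: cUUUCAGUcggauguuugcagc
miR-384-5p: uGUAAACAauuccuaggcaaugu
The seed GUAAACA was found in 4 of the 693 mature names of the RefSeq table: miR-30a-5p, miR-30c-5p, miR-30e-5p and miR-384-5p, which is not among the listed members and is shown for its shared seed. Counting positions from 1 at the 5′ end, miR-30a-5p and miR-30e-5p differed by 1 substitution, C13U. From miR-30a-5p to miR-30c-5p there were 5 substitutions over the 22 bases compared (C13A, G14C, G18C, G19U and A20C). The 3p arm of miR-30a has another seed, UUUCAGU, which no other name in that table holds. Because miR-30d-5p and miR-30e-3p have no sequence there, their seeds were not compared, and neither search could find them. The seeds may therefore be shared by more names than those found.

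The rows gave coordinates in the build named in the submitters' processing notes, rn6. miR-30a-5p was listed on chromosome 9 at 29542640 to 29542661 (plus strand), with its 3p arm at 29542681 to 29542702. miR-30d-5p was on chromosome 7 at 109286512 to 109286533 (minus strand). miR-30e-5p and miR-30e-3p were on chromosome 5 at 139702926 to 139702947 and 139702884 to 139702905 (minus strand). miR-30c-5p was listed in 2 rows, as the product of miR-30c-1 on chromosome 5 (139699927 to 139699949, minus strand), 2934 bases from the miR-30e 3p arm, and of miR-30c-2 on chromosome 9 (29562389 to 29562411, plus strand), 19686 bases from the miR-30a 3p arm. In RefSeq GRCr8 the hairpins of miR-30c-1 and miR-30e both lie within the span of Nfyc, which encodes a subunit of the transcription factor NF-Y, and that of miR-30c-2 lies within the spans of the pseudogene Rbx1-ps1 and of the long noncoding RNA LOC134480562. The 2 miR-30c-5p rows held equal counts in 11 of 12 libraries and differed by 1 read in ctrl3, so their sum is given and the 2 loci cannot be told apart.

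Reads assigned to the listed microRNAs ranged from 403913 to 2625593 per library, with group means of 581090 for dextromethorphan, 986196 for the combination, 1628933 for caffeine and 2011585 for the controls. Values are FPKM, fragments scaled by microRNA length and library size, on a fixed total of assigned reads, so a rise in abundant microRNAs lowers the others. Groups were compared with the linear model of limma on log2(FPKM + 40), and a microRNA passed where its p-value, adjusted by Benjamini-Hochberg over the 366 tested, was under 0.05. DEX2 and DEX3, the shallowest libraries, stood apart on the second principal component of the table (12.7 and 10.7, the others -7.58 to 1.58). Results that use the dextromethorphan group are also given without DEX2 and DEX3. On the first component the controls, at -13.9, -13.7 and -7.24, lay below all treated libraries, at -3.30 to 10.4. Cell markers moved with the groups: the summed FPKM of 10 microRNAs of kidney and gut epithelium was 735149 to 993683 after dextromethorphan, against 163169 to 166425 in control, 240424 to 372063 for caffeine and 215361 to 367276 for the combination. Most of that sum was miR-192-5p and miR-10a-5p, with means of 202189 and 139713 FPKM over all libraries. miR-192-5p and miR-194-5p are also among the liver markers below, so the epithelial and liver lists are not separate. Of 7 red-cell markers 6 were measured. Their summed FPKM, most of it miR-16-5p, was 5193006 to 6202689 in control, 4651466 to 4955814 for caffeine, 5374559 to 6310895 for dextromethorphan and 5076516 to 6362567 for the combination. By limma adjusted p, 2 of the 6 were higher after dextromethorphan (median log2 fold change 1.05), 1 was lower after caffeine, and after both 1 was higher and 1 lower. Of 6 liver markers 3, 4 and 2 were higher by limma adjusted p in the caffeine, dextromethorphan and combination groups, and of 7 platelet and leukocyte markers 2, 0 and 4. Of 7 striated muscle markers 4 were tested, of which 3, 1 and 2 were higher, and miR-208b-3p was at 0 in every library. The part of these sources in the miR-30 values was not tested, and fewer cells releasing a microRNA cannot be told apart from less of it released by each.

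The miR-30 members together took 2.23% to 4.10% of the assigned reads, and most of that was miR-30d-5p. Their share was 3.31% ± 0.75 (SD, n = 3) in the controls and 2.53% ± 0.11 in the caffeine group. It was 2.95% ± 0.68 with dextromethorphan (3.59% in DEX1) and 2.74% ± 0.52 with the combination. The range of every treated group overlapped that of the controls. miR-30d-5p ranked 10 among all 752 names by mean FPKM, miR-30a-5p 33, miR-30e-5p 35, miR-30a-3p 61, miR-30c-5p 70 and miR-30e-3p 79. The order of levels per length was stable at its top. miR-30d-5p was above miR-30a-5p in 12 of 12 libraries, by 3.67-fold to 7.69-fold (median 5.00). miR-30a-5p and miR-30e-5p, which differ by the single substitution above, were neighbours whose ranges overlapped: the ratio of the former to the latter had a median of 1.11 and a range of 0.96 to 1.92. miR-30e-5p was above miR-30a-3p in 12 of 12 libraries (1.93-fold to 5.44-fold). The other neighbours changed places between libraries, with miR-30a-3p above miR-30c-5p in 10 of 12 and miR-30c-5p above miR-30e-3p in 11 of 12.

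**Figure D1:**
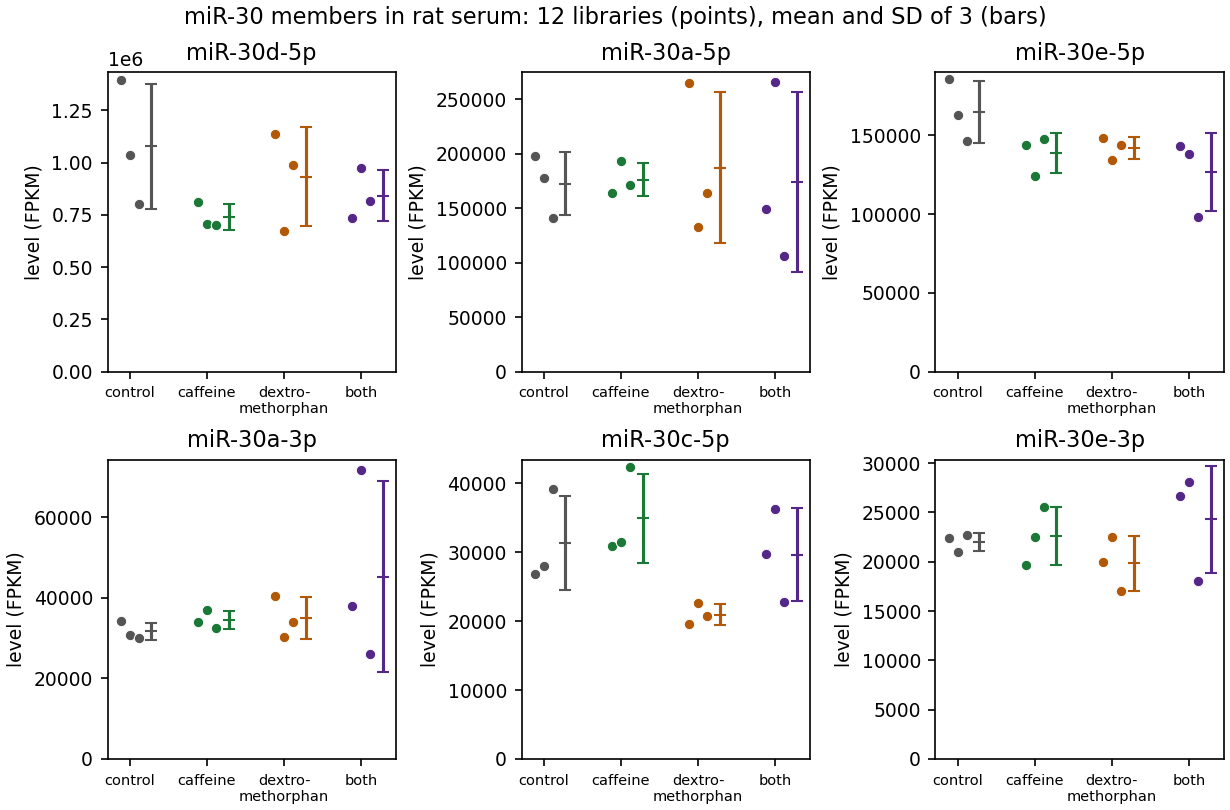
Level of each miR-30 member in FPKM (vertical axes start at 0, and differ between panels) in the 12 libraries by group; points are libraries and bars the mean and SD of 3. The miR-30c-5p points of the dextromethorphan group lie at 19560 to 22578 FPKM, below all control and caffeine points.

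miR-30d-5p, the main circulating member, was measured at 1396506, 1034866 and 804540 FPKM in ctrl1, ctrl3 and ctrl5. After caffeine it was at 809655, 708755 and 701346 FPKM in CAF3, CAF4 and CAF5. Of the 3 caffeine libraries CAF4 and CAF5 lay below every control and CAF3 lay just above ctrl5, so the groups overlapped. It was at 1136679, 672139 and 990426 FPKM in DEX1, DEX2 and DEX3 and at 734167, 976060 and 817245 FPKM in CAFDEX2, CAFDEX3 and CAFDEX6, ranges that overlapped the controls. The fold change against control was 0.70 after caffeine (95% interval 0.48 to 1.02, limma adjusted p = 0.228), 0.87 after dextromethorphan (0.60 to 1.26, adjusted p = 0.576) and 0.80 after both (0.55 to 1.16, adjusted p = 0.424). None passed. The intervals leave room for a fall to about 0.48 of the control level and, at most, a rise to 1.26.

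miR-30a-5p, from the hairpin that also gives an abundant 3p arm, was at 198307, 177726 and 141080 FPKM in the control libraries and at 163738, 192864 and 171342 FPKM after caffeine. It was at 264672, 132809 and 164189 FPKM in DEX1, DEX2 and DEX3 and at 149361, 265929 and 106282 FPKM in CAFDEX2, CAFDEX3 and CAFDEX6. DEX1 and CAFDEX3 were the highest of the 12 libraries and CAFDEX6 the lowest, so the dextromethorphan and combination groups spread to both sides of the controls, while the caffeine libraries lay within the control range. The coefficient of variation was 16.8% in control, 8.58% for caffeine, 36.8% for dextromethorphan and 47.5% for the combination. The log2 fold change against control was 0.04 ± 0.32 after caffeine (SE), 0.07 ± 0.32 after dextromethorphan and -0.08 ± 0.32 after both (limma adjusted p = 0.951, 0.880 and 0.888). With median-of-ratios scaling the caffeine and dextromethorphan values took the other sign (-0.21 and -0.34).

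miR-30a-3p, the other arm of this hairpin, was at 34140, 30755 and 30097 FPKM in control and at 33965, 36950 and 32604 FPKM after caffeine. It was at 40467, 30230 and 33986 FPKM after dextromethorphan and at 37930, 71782 and 26081 FPKM in CAFDEX2, CAFDEX3 and CAFDEX6. CAFDEX3 held the highest level and CAFDEX6 the lowest of all libraries. The log2 fold change was 0.12 ± 0.31 after caffeine (SE), 0.13 ± 0.31 after dextromethorphan and 0.39 ± 0.31 after both (limma adjusted p = 0.838, 0.772 and 0.428), and without CAFDEX3 the last was -0.0074. With median-of-ratios scaling the caffeine and dextromethorphan values were -0.13 and -0.28.

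miR-30e-5p, from the hairpin within Nfyc, was the steadiest 5p member. It was at 185724, 162699 and 146584 FPKM in control, at 143950, 124325 and 147874 FPKM after caffeine and at 148269, 134448 and 143595 FPKM after dextromethorphan. After both drugs it was at 143283, 138410 and 98489 FPKM, so these 3 libraries lay below all 3 controls, as they did for 15.8% of all microRNAs tested. The fold change against control was 0.84 after caffeine (95% interval 0.61 to 1.17), 0.86 after dextromethorphan (0.62 to 1.2) and 0.76 after both (0.55 to 1.05), with limma adjusted p = 0.514, 0.508 and 0.259. With quantile normalization the log2 value after dextromethorphan was -0.58 and passed (limma adjusted p = 0.0441). Under that setting 30 of all 366 microRNAs passed. Its residual SD within groups, 0.19 log2 units, stood at percentile 6.01 among the 183 tested microRNAs of above-median level, whose median was 0.39.

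miR-30e-3p was at 22432, 21008 and 22677 FPKM in control, at 19670, 22520 and 25537 FPKM after caffeine, at 19992, 22545 and 16993 FPKM after dextromethorphan and at 26693, 28114 and 18053 FPKM after both. Each treated group overlapped the controls. Its log2 fold change was 0.03 ± 0.25 after caffeine (SE), -0.16 ± 0.25 after dextromethorphan and 0.11 ± 0.25 after both (limma adjusted p = 0.951, 0.650 and 0.773), with a residual SD within groups of 0.22 log2 units. With median-of-ratios scaling the caffeine and combination values took the other sign (-0.23 and -0.053).

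miR-30c-5p, whose sequence departs more from miR-30a-5p than that of miR-30e-5p does, had the lowest p of the members after dextromethorphan. By limma p in that comparison with control it ranked 114 among the 366 microRNAs tested. It was at 26860, 28038 and 39196 FPKM in ctrl1, ctrl3 and ctrl5 and at 30840, 31521 and 42295 FPKM in CAF3, CAF4 and CAF5. In DEX1, DEX2 and DEX3 it was at 19560, 22578 and 20667 FPKM. After both drugs it was at 29750, 36257 and 22787 FPKM in CAFDEX2, CAFDEX3 and CAFDEX6. All 3 dextromethorphan libraries were lower than the 9 others, although CAFDEX6 lay close to DEX2. Non-overlap below control after dextromethorphan was seen for 7.1% of all microRNAs tested, below caffeine for 4.64%, and non-overlap of the combination above dextromethorphan for 3.83%. The share of microRNAs lowest after dextromethorphan against all 9 others at once was not counted. The fold change of dextromethorphan against control was 0.68 (95% interval 0.46 to 0.99, limma unadjusted p = 0.0454, adjusted p = 0.146), which did not pass. Against caffeine it was 0.61 (0.41 to 0.89, limma adjusted p = 0.213), and that of the combination against dextromethorphan was 1.39 (0.95 to 2.04, adjusted p = 0.402). Against control the fold change was 1.12 after caffeine (0.76 to 1.64, limma adjusted p = 0.752), which went to -0.095 in log2 units with median-of-ratios scaling, and 0.94 after both (0.64 to 1.38, adjusted p = 0.843). The dextromethorphan values rest on recovered counts of 192 to 403 reads, against 1176 to 1693 in control.

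The call for miR-30c-5p after dextromethorphan depended on how libraries were scaled. The median log2 fold change of all 366 microRNAs was 0.47 in that comparison, while that of miR-30c-5p was -0.56 ± 0.26 (SE). With median-of-ratios scaling, which moved the median of all microRNAs to 0.11, it was -0.98 and passed (limma adjusted p = 0.0173). It also passed with quantile normalization (-0.95, adjusted p = 0.0441) and with columns rescaled without miR-191a-5p, the most abundant microRNA (-0.83, adjusted p = 0.0456). Of all microRNAs, 34 of 366, 30 of 366 and 28 of 365 passed under these scalings in turn. Without DEX2 and DEX3 together the value was -0.66 (adjusted p = 0.288), with DEX1 assumed to vary like the other groups. Without ctrl5, the control with the highest level, it was -0.39 (limma adjusted p = 0.341). Red-cell RNA was gauged by an index, log2 of miR-451-5p over miR-23a-3p, which stood at -7.53 ± 0.38 in control and -5.61 ± 0.74 after dextromethorphan (SD, n = 3), with -6.74 ± 0.35 for caffeine and -5.99 ± 0.39 for the combination. With this index as a covariate the value was -0.93 (limma adjusted p = 0.659). The index did not overlap between control (-7.79 to -7.09) and dextromethorphan (-6.46 to -5.12), so the 2 cannot be told apart in that fit. The number of all microRNAs passing in this comparison went from 44 to 1 with the covariate. Of the other members without DEX2 and DEX3, miR-30a-5p was at 0.63 against control, miR-30a-3p at 0.36, miR-30d-5p at 0.11, miR-30e-5p at -0.15 and miR-30e-3p at -0.14, and none passed. For miR-30c-5p the difference from caffeine was then -0.82, and that of the combination from dextromethorphan 0.57, in log2 units.

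**Figure D2:**
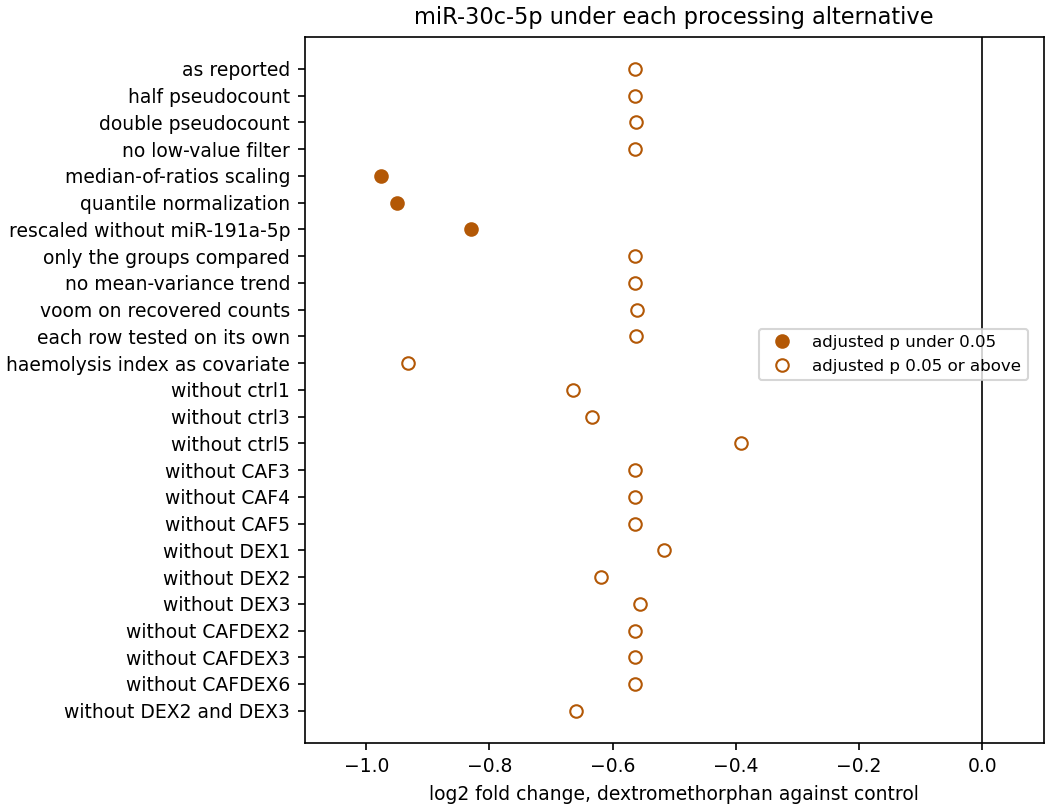
Log2 fold change of miR-30c-5p in dextromethorphan against control libraries (horizontal axis) as reported and under each processing alternative (vertical axis); filled points have a limma adjusted p under 0.05. All values lie below 0, between -0.98 and -0.39, and 3 rescalings pass.

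Across the comparisons with control, 0 of the 6 members passed after caffeine (7.92% of all microRNAs tested passed), 0 after dextromethorphan (12% of all) and 0 after both (10.9% of all). By limma's unadjusted p under 0.05 the counts were 0, 1 and 0 members, the 1 being miR-30c-5p, beside 24.9%, 32.2% and 28.1% of all microRNAs. With voom on the recovered counts 0 members passed in these comparisons and in those between treated groups. The members' median log2 fold change was 0.03 after caffeine, -0.18 after dextromethorphan and -0.08 after both, beside medians of 0.19, 0.47 and 0.24 over all microRNAs tested. The 3 comparisons share the control libraries. The 10 epithelial markers had a median of 2.73 after dextromethorphan, with 7 of 10 higher by limma adjusted p; their part in the miR-30 values was not tested.

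**Figure D3:**
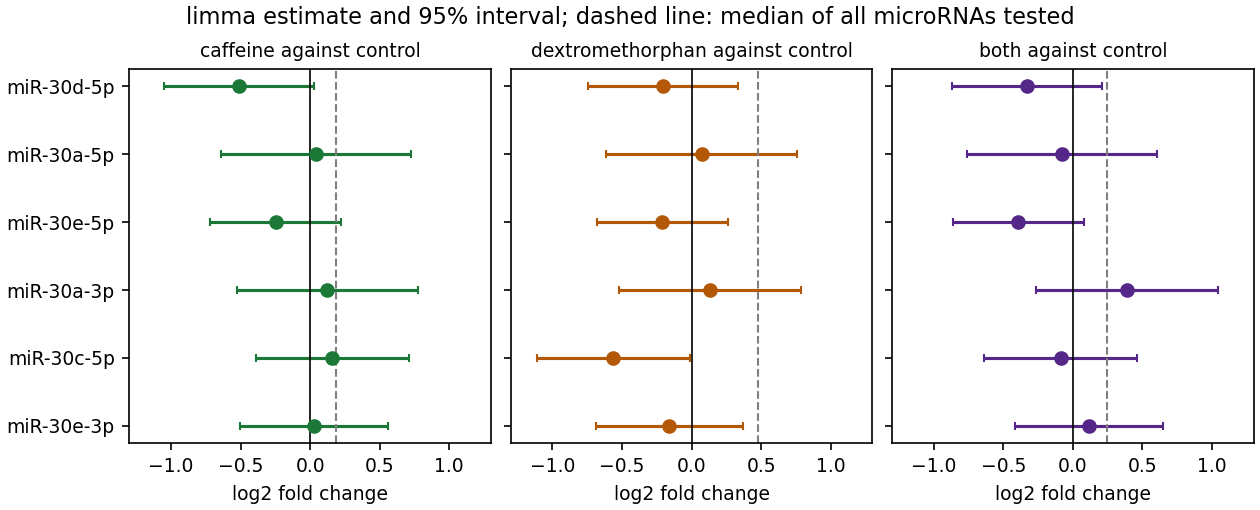
Log2 fold change (horizontal axis) of each miR-30 member against control in the 3 treated groups, with 95% intervals from limma; the dashed line is the median of all microRNAs tested. Of the 18 intervals, that of miR-30c-5p after dextromethorphan is the one that does not reach 0.

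In the comparisons between treated groups no member passed. For the combination against caffeine, the group without dextromethorphan, 0 of 6 members passed, with 0% of all microRNAs passing. At an unadjusted limma p under 0.05 stood 6.01% of all microRNAs and no member. The time from caffeine to blood in the caffeine group is not given here, so a difference in timing cannot be told apart from added dextromethorphan. For the combination against dextromethorphan, the group without caffeine, 0 of 6 passed (3.55% of all, and 16.1% at an unadjusted limma p under 0.05). Dextromethorphan against caffeine gave 0 of 6 (2.46% of all). In that comparison miR-30c-5p was the 1 member at an unadjusted limma p under 0.05, beside 15% of all microRNAs. The interaction term asks whether the log2 changes of the single drugs add up to that of the combination. For it 0 of 6 passed (4.64% of all, and 21.3% at an unadjusted limma p under 0.05), with member values from -0.19 (miR-30a-5p) to 0.39 (miR-30d-5p) log2 units and a smallest adjusted p of 0.633. In limma's test for any difference among the 4 groups, 0 of 6 passed beside 11.5% of all microRNAs (31.7% at an unadjusted p under 0.05), and the smallest adjusted p was that of miR-30c-5p, 0.193. By unadjusted p under 0.05 the counts were 0 of 6 members for the combination against each single drug, for the interaction and for any difference. Leaving out DEX2 and DEX3 keeps 1 dextromethorphan library, so only effect sizes are given for it here. The members' median log2 fold change then went from -0.18 to -0.014 for dextromethorphan against control and from 0.02 to 0.17 for dextromethorphan against caffeine. For the combination against dextromethorphan it went from 0.07 to -0.11, and for the interaction from 0.19 to 0.03.

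Within the family the mean shares of the members differed between groups, in percentage points most for miR-30d-5p, the largest part. miR-30d-5p made up 62.5% to 75.0% of the members' reads, with 71.3% ± 3.52 (SD, n = 3) in the controls and 64.4% ± 2.57 in the caffeine group. It was 69.4% ± 3.05 with dextromethorphan and 68.2% ± 5.88 with the combination. Its range was 67.8% to 74.9% in control, 62.5% to 67.3% after caffeine, 66.2% to 72.3% after dextromethorphan and 64.3% to 75.0% after both. miR-30a-5p made up 10.6% to 12.2% in control, 13.6% to 17.2% after caffeine, 12.0% to 16.2% after dextromethorphan and 9.75% to 17.5% after both. For miR-30a-3p the ranges were 1.83% to 2.54%, 2.82% to 3.30%, 2.48% to 2.98% and 2.39% to 4.73% in the same order. The dextromethorphan and combination ranges of these members overlapped the controls. miR-30e-5p stayed at 9.04% to 13.2% in all 12 libraries. miR-30c-5p held 2.32% ± 1.0 of the members' reads in control, 3.19% ± 0.66 with caffeine, 1.72% ± 0.55 with dextromethorphan (1.25% in DEX1) and 2.48% ± 0.29 with the combination, and the range of each treated group overlapped that of the controls. These shares are a description of parts that sum to 100%, and no test was made of them. How often such shares separate from control in other families was not counted.

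**Figure D4:**
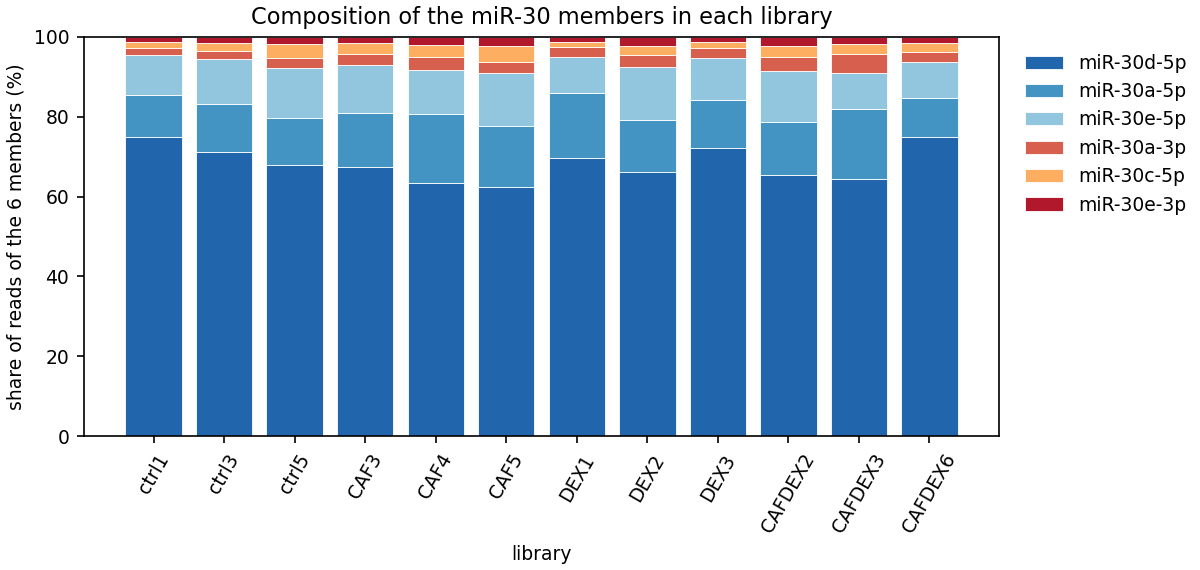
Share of the reads of the 6 miR-30 members (vertical axis, percent) taken by each member in each of the 12 libraries (horizontal axis). miR-30d-5p fills 62.5% to 75.0% of every bar.

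The ratio of the 5p to the 3p arm within a hairpin does not depend on how libraries are scaled, and it was lowest in the combination group for both hairpins with 2 abundant arms. The miR-30a hairpin is shown to place the arms, which are in capitals (RefSeq, GRCr8). It is 71 bases long, with 19 bases between the arms.
Mir30a: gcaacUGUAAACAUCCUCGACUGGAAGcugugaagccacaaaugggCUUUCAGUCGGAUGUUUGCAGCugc
The FPKM ratio of miR-30a-5p to miR-30a-3p was 5.81, 5.78 and 4.69 in ctrl1, ctrl3 and ctrl5. It was 4.82, 5.22 and 5.26 in CAF3, CAF4 and CAF5 and 6.54, 4.39 and 4.83 in DEX1, DEX2 and DEX3. In CAFDEX2, CAFDEX3 and CAFDEX6 it was 3.94, 3.7 and 4.08, below all 9 other libraries. The 5p arm was thus the more abundant arm throughout, and the margin was smallest after both drugs.

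For miR-30e the ratio was 8.28, 7.74 and 6.46 in control, 7.32, 5.52 and 5.79 after caffeine and 7.42, 5.96 and 8.45 after dextromethorphan. In CAFDEX2, CAFDEX3 and CAFDEX6 it was 5.37, 4.92 and 5.46, again below all 9 others, though CAF4 lay close. Among 102 microRNA names with both arms tested, the 3 combination libraries were lowest for 4 (3.92%), namely miR-30a, miR-30e, miR-26b and miR-126a, and highest for 0. The difference in log2 ratio between combination and control was -0.47 for miR-30a and -0.51 for miR-30e, beside a median of -0.06 over the 102. The exact permutation test over the 4 groups, with 369600 assignments of the 12 libraries, gave p = 0.0557 for miR-30a and p = 0.0534 for miR-30e (both 0.0557 adjusted over the 2 ratios), which did not pass. For both ratios the adjusted p fell under 0.05, with an exact permutation p for miR-30a and miR-30e in turn, without ctrl5 (0.0357 and 0.0353), without DEX2 (0.0239 and 0.0184) and without DEX2 and DEX3 together (0.00536 and 0.0450), and for miR-30a without DEX1 (0.00714). Without CAFDEX3 the exact permutation p was 0.174 and 0.144. The pattern of the lowest ratios was noticed after the values were seen. Counts were whole in 6 of 12 libraries for miR-30a-3p and in 8 for miR-30e-3p, so some reads of these arms were divided with other places. Whether the 2 ratios share reads was not tested, so they may not be independent.

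**Figure D5:**
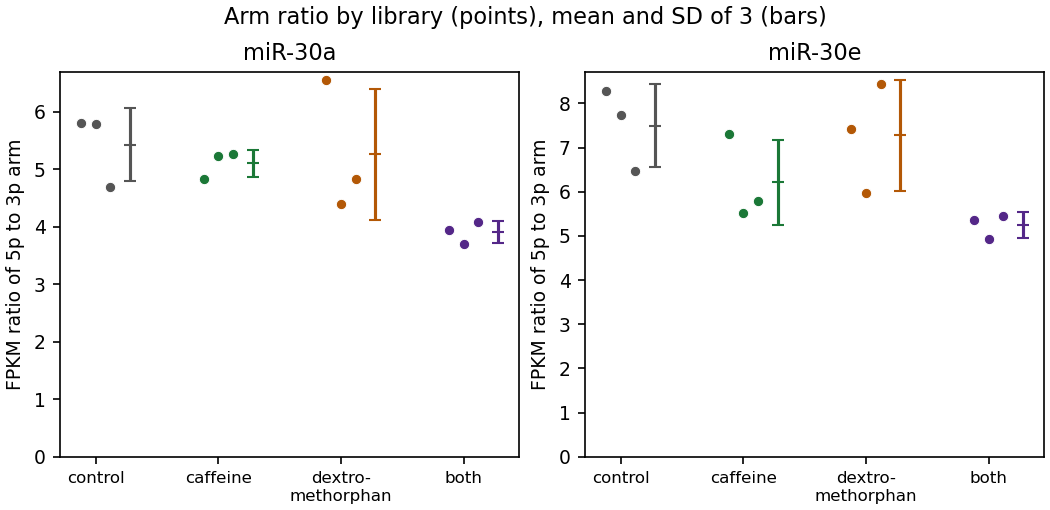
FPKM ratio of the 5p to the 3p arm (vertical axes start at 0) for the miR-30a and miR-30e hairpins by group; points are libraries and bars the mean and SD of 3. The combination libraries sit at 3.7 to 4.08 for miR-30a and 4.92 to 5.46 for miR-30e, below all other libraries.

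Other arms of the family were rare in serum. miR-30d-3p, from the hairpin of the most abundant member, had recovered counts of 2 to 17 reads per library, so that miR-30d-5p exceeded it by 1760-fold to 11200-fold (median 3039). miR-30c-1-3p had 1 to 12.7 reads and miR-30c-2-3p 10.2 to 48. The latter arm, at a mean of 1100 FPKM against 213 FPKM for the former, was the more abundant 3p arm of the miR-30c hairpins. Each was listed at 1 locus, but counts were whole in 5 libraries for miR-30c-1-3p and 10 for miR-30c-2-3p. Some of their reads were therefore divided with other places. None of these 3 arms passed in any of the 7 comparisons between groups, with limma adjusted p from 0.465 upward. miR-384-5p, which shares the seed, had 0 to 2 reads per library and was not tested.

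The members were alike to differing degrees from library to library. Over the 12 libraries the Pearson correlation of log2 levels was 0.78 between the arms of miR-30a and 0.24 between the arms of miR-30e and, after subtracting group means, 0.91 and 0.57. miR-30c-5p, which can come from hairpins next to those of miR-30e and miR-30a, had 0.69 with miR-30e-3p, 0.16 with miR-30e-5p, 0.23 with miR-30a-3p and 0.07 with miR-30a-5p. miR-30d-5p had 0.57 with miR-30e-5p, 0.53 with miR-30a-5p, -0.35 with miR-30c-5p and -0.23 with miR-30e-3p, and these last were the pairs below 0, with or without the group means. These values describe 12 libraries that share groups, depth and a fixed total. By the same measure, among 177 abundant microRNAs outside the family, miR-30d-5p was most like miR-26a-5p (0.82) and miR-361-5p (0.81), and miR-30e-5p most like miR-361-5p (0.75) and miR-20a-5p (0.72). miR-30a-5p was most like miR-130a-3p (0.80) and miR-143-5p (0.77), and its 3p arm most like miR-126a-5p (0.72) and miR-126a-3p (0.71). miR-30c-5p was most like miR-505-3p (0.71) and miR-361-3p (0.65), and miR-30e-3p most like miR-28-3p (0.78) and miR-505-3p (0.73).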

How the data were processed

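The authors deposited FPKM for each row of mature microRNAs, 1 column per library. The submitters' processing notes name build rn6, DESeq2 1.20.0, Subread 2.0.1, featureCounts, STAR 2.7.10a and cutadapt 3.7, and their roles are not stated there. Per the labels' protocols RNA came from 200 uL of serum, and the library kit adds molecular indices, and whether these were used to collapse reads is not known here. Each group had 5 rats per the series' design text, and 12 libraries were analysed here. Column names give the group but not the sample, and no source says which animal a library came from. The p-values therefore rest on the spread of the 12 libraries, which may be technical.

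Copies of a name were summed. Counts were recovered from steps of 0.01 read, which accounted for 100% of values above 0 within 0.02 of a step; 65.4% to 75.0% were whole (within 0.0001), so reads that match several places were divided. A read on 22 bases was worth 17.3 to 113 FPKM. Tested names had a mean of 80 FPKM or more and were above 0 in 3 or more libraries. log2(FPKM + 40) was fitted with limma 3.58.1 (R 4.3.3) over 4 groups with a mean-variance trend, and p-values, two-sided, were adjusted by Benjamini-Hochberg over 366 microRNAs (threshold 0.05). Fold changes are on that scale and understate changes of low values. The fit was tested on simulated data. Arm ratios used exact permutation. Alternatives were 2 other pseudocounts, no filter, 3 other scalings, fewer groups, no trend, voom, unsummed rows, a haemolysis covariate and leaving out libraries. Python 3.11.15 was used for tables and plots. The members and lists were chosen with earlier results of these data known. The text names all members, the other miR-30 arms, names with the same seed and, for each member, the 2 most alike microRNAs of above-median level; miR-26b and miR-126a were named after their values were seen.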

Additional observations from a re-analysis of the deposited data

How the results depend on the processing

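No paired analysis was possible because the numbers in the column names are not those of the sample titles. Under the alternatives the count of members passing stayed at 0 in the 7 comparisons and the test for any difference, with these exceptions. After dextromethorphan it was 1 with median-of-ratios scaling (miR-30c-5p), beside 34 of all 366 microRNAs. With quantile normalization it was 2 (miR-30c-5p and miR-30e-5p), beside 30 of 366, and when rescaled without miR-191a-5p 1, beside 28 of 365. For any difference it was 1 with median-of-ratios scaling, beside 43 of 366. Leaving out each library in turn gave exact permutation p from 0.00714 to 0.174 for the miR-30a arm ratio and from 0.0184 to 0.144 for miR-30e; without DEX2 and DEX3 it was 0.00536 and 0.0450. The cause was not tested.

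Of 480 alternative log2 fold changes of the members given in the text 34 changed sign, and of 522 in the other comparisons 43; none of these passed. After caffeine, miR-30a-5p was -0.21 with median-of-ratios scaling, -0.067 without miR-191a-5p and -0.10 to 0.15 leaving out a library; miR-30a-3p was -0.13 and miR-30c-5p -0.095 with median-of-ratios scaling; miR-30e-3p was -0.23 with median-of-ratios scaling, -0.014 with quantile normalization, -0.080 without miR-191a-5p, -0.11 with the haemolysis index (log2 ratio of miR-451-5p to miR-23a-3p) as a covariate and -0.066 to 0.12 leaving out a library. After dextromethorphan, with median-of-ratios, quantile and miR-191a-free scaling in that order, miR-30a-5p was -0.34, -0.17 and -0.20 (-0.21 to 0.29 leaving out a library) and miR-30a-3p -0.28, -0.19 and -0.13; miR-30d-5p was 0.31 with the index, 0.11 without DEX2 and DEX3 and -0.40 to 0.013 leaving out a library. After both, miR-30a-5p was 0.20 with the index and -0.44 to 0.22 leaving out a library, miR-30a-3p -0.0074 to 0.72, miR-30c-5p -0.25 to 0.088 and miR-30d-5p 0.086 with the index; miR-30e-3p was -0.053 with median-of-ratios scaling, -0.10 without miR-191a-5p, -0.16 with the index and -0.0048 to 0.31 leaving out a library.

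The number of all microRNAs passing ranged over the alternatives from 4 to 65 after caffeine (29 as reported), 1 to 74 after dextromethorphan (44), 1 to 60 after both (40), 0 to 24 for both against dextromethorphan (13), 0 to 27 for dextromethorphan against caffeine (9), 7 to 38 for the interaction (17) and 16 to 71 for any difference (42). The smallest count behind a member's value was 151 reads (miR-30e-3p).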
